A study of Mus musculus with 3 samples.

Results

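Cytosolic ribosomal protein genes encode the protein parts of the ribosome outside mitochondria. They were taken by symbol from the feature list of the matrices: Rpl or Rps followed by a number and at most a short suffix, the stalk genes Rplp0, Rplp1 and Rplp2, and Rpsa, with names marked as pseudogenes left out. This gave 84 of 31053 features, 52 with large-subunit names and 32 with small-subunit names. Single-cell RNA was counted in dorsal skin of 3 groups of mice, with 1 library in each, so no value below has a replicate and no test across mice was possible. The young control carried Yap1 fl/fl and Wwtr1 fl/fl alleles, was 2.5 months old and was given tamoxifen by oral gavage (0.11 mg for each g of weight, 2 days in each of 4 weeks). The knockout carried the same floxed alleles with R26-CAG-CreER, a tamoxifen-inducible Cre recombinase under a ubiquitous promoter, and had the same age and treatment. The old control was wild-type, 24 months old and untreated, so age, alleles and tamoxifen differ together in its comparison with the young control and cannot be told apart. YAP and TAZ, the products of Yap1 and Wwtr1, are transcriptional co-activators of the Hippo pathway, and the Cre is not restricted to fibroblasts. How many mice went into a library is not stated in the labels.

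Each ribosome is built from a small subunit, which reads the mRNA, and a large subunit, which joins amino acids, and the ribosomal proteins go into each particle in near equal numbers. The mRNAs of these proteins begin with a short run of pyrimidines, the terminal oligopyrimidine tract, through which mTOR signalling and the protein LARP1 set their translation and stability together. In skin, as elsewhere, the summed level of these mRNAs differs between cell types and is known to follow growth and protein synthesis, while a few members have a second gene copy that is used in particular tissues.

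The start sites of 12 members are shown because the results below turn on them. Rps15, Rpl5, Rpl37a and Rps12 lost share within the family in both other libraries, Rplp0, Rpl35, Rps18, Rps7 and Rps2 gained share in the knockout, and Rpl22l1, Rps27l and Rpl39l are second copies whose levels differed between cell types. Each line holds 75 bases, 50 before and 25 from the RefSeq start on GRCm38.p6, written 5′ to 3′ on the gene's own strand, with the longest run of C and T in capitals.
Rps15 (chr10:80292381-80292455, plus strand): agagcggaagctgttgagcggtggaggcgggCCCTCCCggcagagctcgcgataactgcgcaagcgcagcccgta
Rpl5 (chr5:107900478-107900552, plus strand): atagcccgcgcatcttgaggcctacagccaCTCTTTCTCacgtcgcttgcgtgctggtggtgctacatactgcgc
Rpl37a (chr1:72711210-72711284, plus strand): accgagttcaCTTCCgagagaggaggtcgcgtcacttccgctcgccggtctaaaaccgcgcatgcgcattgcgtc
Rps12 (chr10:23787185-23787259, minus strand): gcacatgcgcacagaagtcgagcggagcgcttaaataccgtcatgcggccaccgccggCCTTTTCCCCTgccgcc
Rplp0 (chr5:115559417-115559491, plus strand): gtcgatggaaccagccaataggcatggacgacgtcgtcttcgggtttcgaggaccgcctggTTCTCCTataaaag
Rpl35 (chr2:39005107-39005181, minus strand): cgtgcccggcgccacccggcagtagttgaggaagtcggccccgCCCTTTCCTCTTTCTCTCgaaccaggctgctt
Rps18 (chr17:33955641-33955715, minus strand): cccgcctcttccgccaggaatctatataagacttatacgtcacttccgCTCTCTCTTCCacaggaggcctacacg
Rps7 (chr12:28635929-28636003, minus strand): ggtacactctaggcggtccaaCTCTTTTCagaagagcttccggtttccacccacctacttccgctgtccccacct
Rps2 (chr17:24720013-24720087, plus strand): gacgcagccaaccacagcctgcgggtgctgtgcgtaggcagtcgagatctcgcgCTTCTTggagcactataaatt
Rpl22l1 (chr3:28805458-28805532, plus strand): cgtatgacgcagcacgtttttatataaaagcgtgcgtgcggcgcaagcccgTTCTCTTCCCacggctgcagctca
Rps27l (chr9:66946036-66946110, plus strand): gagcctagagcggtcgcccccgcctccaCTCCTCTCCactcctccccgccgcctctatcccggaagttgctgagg
Rpl39l (chr16:10170178-10170252, plus strand): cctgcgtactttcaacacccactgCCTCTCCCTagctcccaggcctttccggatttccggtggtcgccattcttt

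A start window was found for 64 of the 84 members. A run of at least 8 pyrimidines on the sense strand stood in 40 of the 64 windows (62.5%), against 32.4% of the windows of 27025 genes, and the median longest run was 9 bases against 6. The letters CTTTCC were in 13 windows on the sense strand (20.3%, against 4.28%), and CTCTTTC, which can overlap CTTTCC, was in 7 (10.9%, against 1.24%). The letters CGGAAG, the core bound by ETS factors, were in 21 windows on either strand (32.8%, against 8.89%). TATAAA was in 4 on the sense strand (6.25%, against 3.64%). These are matches of letters in a window that was shortened after a longer one had been looked at. Among members that lost share in the knockout in every class described below, 4 of the 7 with a window held a run of at least 8, and among those that gained share it was 6 of 10.

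The libraries differed in quality and make-up. In the order young control, knockout, old control there were 15290, 25348 and 22108 barcodes, and the total depth was 95274423, 57767761 and 52579262 UMIs, where a UMI stands for 1 captured mRNA molecule. More than 15% of UMIs were mitochondrial in 12.3%, 62.4% and 19.4% of the barcodes, and after filters 10784, 8655 and 11108 cells were kept with a median of 4957, 2083 and 1783 UMIs. Of these, 16.4%, 67.1% and 50.6% were in clusters that could not be named from fixed markers. Kept barcodes shared between libraries numbered 41, 39 and 50 for the 3 pairs. Levels are given in CPM, the UMIs of a gene scaled to a class total of 1e6. Wwtr1 was at 125 CPM in young fibroblast-like cells, against 26.3 in knockout and 118 in old control cells. Yap1 was at 59.2, 51.8 and 53.2 CPM in the same cells. In the young control and knockout it was at 57.9 and 32.2 CPM in Schwann-like and 90.4 and 31.5 in lymphatic endothelial-like cells. Of the 8 classes compared, only dermal papilla or sheath-like cells had more Yap1 in the knockout, at 70.2 and 76.1 CPM. Whether the 3' reads of Yap1 lie outside the deleted part was not tested. In the knockout Xist had at most 1 UMI in each of the 8 classes compared, against 725 to 2667 CPM in both other libraries, and Ddx3y, on the Y chromosome, was at 87.0 to 189 CPM in the knockout with 0 UMIs in the others. Differences in sex and in the knockout genotype therefore cannot be told apart.

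Across cell types of the young control, ribosomal protein mRNAs made up between 7.55% and 25.8% of all UMIs. Cell types were named from marker genes, as "like" classes, after clustering with ribosomal protein genes left out. Keratinocyte-like cells, which make the epidermis and hair follicle, had the highest summed share at 25.8%, followed by melanocyte-like pigment cells at 22.3% and lipid-producing sebocyte-like cells at 21.9%. Immune classes ranged from 17.4% in dendritic or Langerhans-like cells to 8.10% in mast-like cells. Lymphoid-like (T, NK or innate) cells had 16.1% and macrophage or monocyte-like cells 11.9%. Among stromal classes, dermal papilla or sheath-like cells, the mesenchyme of the hair follicle, had 13.6%, fibroblast-like cells 10.3% and pericyte or smooth muscle-like (mural) cells 8.74%. Schwann-like cells, the glia of skin nerves, had the lowest share at 7.55%. Vascular endothelial-like cells had 13.3% and lymphatic endothelial-like cells 10.5%.

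Sums give large cells more weight, and this changed the order. The median over melanocyte-like cells was 14.7%, below that of dendritic or Langerhans-like cells at 16.6%, and the melanocyte-like class also held 12547 CPM of keratinocyte markers. The median over dermal papilla or sheath-like cells was 9.73%, close to that over fibroblast-like cells at 9.43%. The middle 50% of cells ranged from 7.66% to 11.7% in fibroblast-like cells and from 7.90% to 12.1% in dermal papilla or sheath-like cells, so these neighbours overlapped. It ranged from 20.8% to 28.1% in keratinocyte-like cells and from 5.98% to 8.47% in Schwann-like cells, which did not overlap. Exact binomial intervals on the sums, such as 7.51% to 7.59% for Schwann-like cells, cover counting error only, as do all intervals below.

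**Figure D1:**
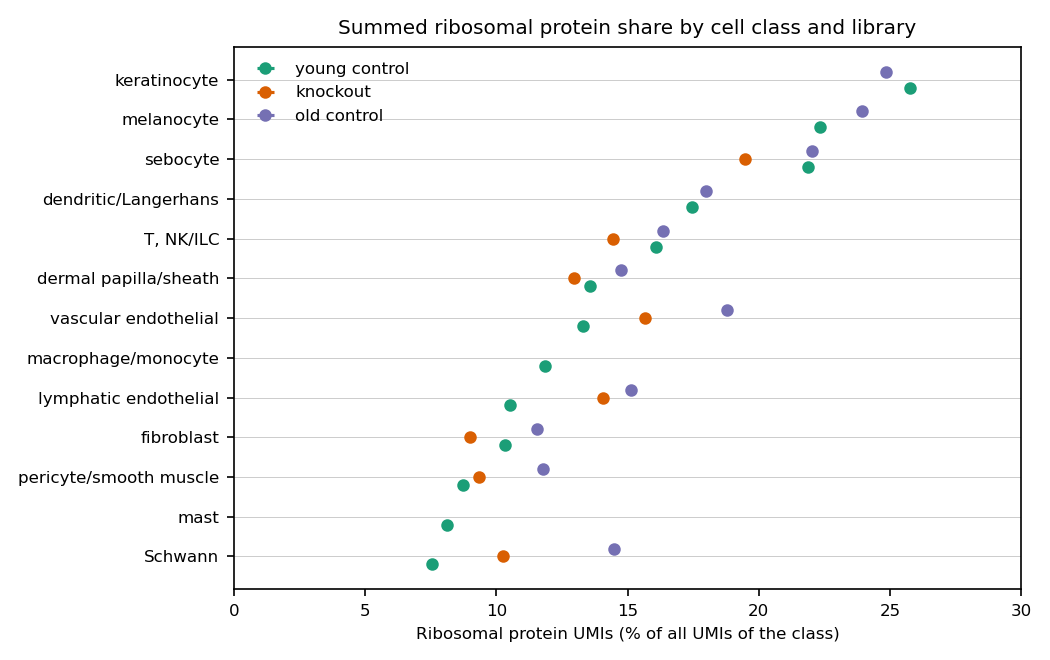
Summed ribosomal protein UMIs as a percentage of all UMIs (horizontal axis) for each named cell class (vertical axis, ordered by the young control) in the young control, the knockout and the old control. Bars are exact 95% intervals for counting error and are mostly smaller than the points, classes with under 50 cells in a library are not drawn, and the old control point is farthest to the right in Schwann-like cells, at 14.5% against 7.55% in the young control.

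Members differed in how evenly they held their share of the family's UMIs across the 13 classes of the young control. The 5 most even members were Rpl27a (SD of the log2 share 0.057), Rpl23 (0.083), Rpl37 (0.096), Rps25 (0.11) and Rpl19 (0.11). Rpl27a held between 1.496% and 1.72% of the family's UMIs in every class. Among the 81 members with at least 20 CPM in each class, the 5 most uneven were Rpl7l1 (0.74), Rpl22l1 (0.49), Rps27l (0.46), Rplp1 (0.32) and Rplp0 (0.31). The first 3 of these are second copies of Rpl7, Rpl22 and Rps27. The others belong to the stalk, the flexible arm of the large subunit that calls in translation factors. A member's share also moves with the family's sum. Rpl7l1 was at 30.4 CPM in Schwann-like and 32.1 in keratinocyte-like cells, where the family made up 7.55% and 25.8% of UMIs. Other members also varied: Rpl37a held from 2.02% in keratinocyte-like to 3.90% in macrophage or monocyte-like cells, and Rps26 from 0.780% in dermal papilla or sheath-like to 1.55% in macrophage or monocyte-like cells.

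The stalk genes did not move together over cell types. Rplp0, the base of the stalk, held 1.82% of the family's UMIs in keratinocyte-like cells and 0.862% in vascular endothelial-like cells. Rplp1, an acidic protein bound to Rplp0, held 4.15% in mast-like cells and 1.68% in melanocyte-like cells. In keratinocyte-like cells Rplp0 was at 4678 CPM and Rplp1 at 6879, against 709 and 3362 in mast-like cells. Rplp2, the partner of Rplp1, was at 2845 CPM in keratinocyte-like cells and 1228 in mast-like cells. Rpsa, a small-subunit protein that was first described as a laminin receptor, was at 3465 CPM in keratinocyte-like cells, 3087 in lymphoid-like cells and 874 in mast-like cells.

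Several second copies differed in level between cell types. Rpl39l, a copy of Rpl39 known for its use in the testis, was at 69.4 CPM in fibroblast-like cells of the young control, 60.3 in dermal papilla or sheath-like cells and 50.2 in mural cells. In the other 10 classes it lay between 1.22 and 11.4 CPM, so the 3 mesenchymal classes stood apart. In the knockout the same 3 classes had 51.8, 49.3 and 46.1 CPM, and in the old control 55.0, 41.5 and 27.3 CPM. The sebocyte-like cells had 1.22 CPM in the young control, 0 of their UMIs in the knockout (3 UMIs would be 3.48 CPM) and 4.81 CPM in the old control. Rpl39l supplied 3.55% of the UMIs of Rpl39 and Rpl39l together in fibroblast-like cells and 0.43% in Schwann-like cells. No other gene of the annotation shared a 60-base stretch with the last 300 bases of the longest Rpl39l coding transcript. Reads from that end had no listed copy to be split with.

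Rpl22l1, the copy of Rpl22, was at 656 CPM in dermal papilla or sheath-like cells and 502 in mural cells of the young control, where Rpl22 was at 916 and 625. In dendritic or Langerhans-like cells Rpl22l1 was at 316 CPM and Rpl22 at 1521. The copy thus made up 41.7% and 44.5% of the pair in the first 2 classes and 17.2% in the last. High levels were not limited to these 2 classes. Rpl22l1 was at 788 CPM in melanocyte-like and 753 in sebocyte-like cells, with Rpl22 at 1768 and 1833. In mast-like cells the copy was at 450 CPM and Rpl22 at 671. In the old control the copy's part of the pair was 25.8% in dermal papilla or sheath-like cells, and in the knockout 38.0%.

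Rps27l, a copy of Rps27 that is also known as a p53 target, was at 629 CPM in sebocyte-like cells, 459 in dendritic or Langerhans-like cells and 169 in lymphoid-like cells. Its part of the pair with Rps27 was 19.2%, 13.2% and 4.63% in these classes. Sebocyte-like and lymphoid cells were also the highest and the lowest class in the other libraries, with 498 and 154 CPM in the knockout and 469 and 174 in the old control. Rpl36al, a copy of Rpl36a, ranged from 83.3 CPM in Schwann-like to 310 in sebocyte-like cells. Rpl7l1, a relative of Rpl7 with a role in ribosome assembly, lay between 22.9 and 54.8 CPM in the 13 classes of the young control. Rpl10l, a testis copy of Rpl10, had 0 UMIs in every class of every library. Rpl3l, the copy of Rpl3 known from heart and skeletal muscle, had 10, 12 and 2 UMIs over 8 classes of the young control, the knockout and the old control. The symbols Rps4l, Rps3a2 and Rps3a3 were not among the listed features.

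**Figure D2:**
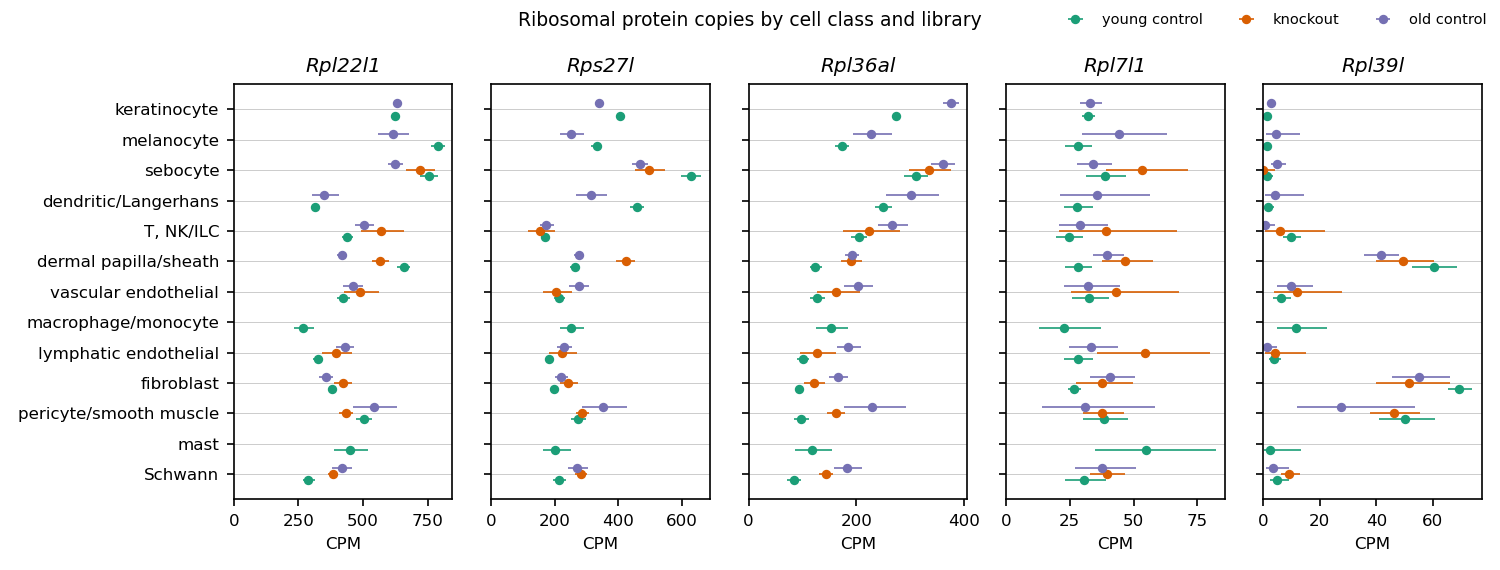
Level in CPM (horizontal axis, linear, each panel on its own scale) of 5 second copies in each cell class (vertical axis) and library, with exact 95% Poisson intervals for counting error. Rpl39l lies at 27.3 CPM or above in fibroblast-like, dermal papilla or sheath-like and mural cells of every library and at 11.9 CPM or below in the others drawn.

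The comparison of the knockout with the young control asks what loss of YAP and TAZ does in skin at equal age and treatment. Of the 13 classes 8 had at least 50 cells in each library, and 4 had at least 100: fibroblast-like (2560, 187 and 376 cells in the young control, knockout and old control), dermal papilla or sheath-like (200, 108 and 1192), Schwann-like (649, 1229 and 568) and sebocyte-like (100, 226 and 782). A gene was tested where its mean over the 3 libraries was at least 20 CPM, and called where the ratio of CPM values was at least 1.5-fold in either direction and the near bound of its interval was past 1.2-fold. Called genes differ between 2 libraries, not between groups of mice. Fewer mRNA molecules of the family and more of all others give the same ratio.

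In fibroblast-like cells the family made up 10.3% of UMIs in the young control and 9.01% in the knockout, a ratio of 0.873 (95% interval 0.868 to 0.878). Of 82 members tested, 5 were called lower, when 7.82% of all 6218 genes were, and 1 was called higher, when 16.1% of all genes were. The median log2 ratio was -0.17 for the members and 0.18 for all genes, and 60 of the 82 lay below 1. The members with the lowest ratios were Rpl5, which carries a small ribosomal RNA into the large subunit and binds Mdm2, at 710 CPM in the young control and 394 in the knockout (ratio 0.56), Rps26 at 1316 and 783 (0.59), Rps15 at 1063 and 638 (0.60), and Rps12 at 2168 and 1379 (0.64). The one member called higher was Rps2, a small-subunit protein near the mRNA entry, at 791 and 1246 CPM (1.58). Rpl7l1 (1.40), Rpl27 (1.36) and Rpl36al (1.29) came next and were not called. Within clusters the family's share was 9.10% and 8.63% in cluster 2, 9.28% and 8.53% in cluster 35, and 9.25% and 9.55% in cluster 22. Markers of other cell types moved with this result: the summed level of 13 keratinocyte markers was 1478 CPM in the young control and 278 in the knockout, where 1 of them was at 0, and that of 9 dermal papilla or sheath markers, all detected, was 252 and 924 CPM. Their part in the result was not tested. With TMM scaling, which moved the median of all genes by -0.20 on the log2 scale, 11 members were called lower and 0 higher. Of all genes, 752 were then called lower and 579 higher, against 486 and 1002 without that scaling.

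Translation factors whose mRNAs carry the same start tract were measured beside the family. Of 17 tested, 5 were called lower (7.82% of all genes) and 0 higher (16.1%) in knockout fibroblast-like cells, with a median log2 ratio of -0.24. Rack1, a scaffold on the small subunit, was at 933 CPM in young, 491 in knockout and 638 in old fibroblast-like cells. Eef2, which moves the ribosome along the mRNA, was at 800 and 423 CPM in the young control and the knockout, and Eif3f, an initiation factor subunit, at 269 and 139. Fau, which encodes a small-subunit protein fused to a ubiquitin-like protein, had a ratio of 0.92. Genes for ribosome assembly in the nucleolus did not lie on the same side: of 11 tested 3 were called higher and 0 lower, with Nhp2, a snoRNP protein, at 29.9 and 52.6 CPM and Nop56 at 35.8 and 62.9. Dissociation genes differed as well, with Hspa1b at 161 CPM in the young control and 1449 in the knockout, and their part in the result was not tested.

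In Schwann-like cells the difference was in the other direction. The family made up 7.55% of UMIs in the young control and 10.2% in the knockout, a ratio of 1.36 (1.35 to 1.36). Of 81 members tested 27 were called higher, when 10.4% of all 6771 genes were, and 0 lower, when 16.7% of all genes were. The median log2 ratio was 0.48 for the members and -0.09 for all genes. Rps2 was at 615 CPM in the young control and 1496 in the knockout (ratio 2.43), Rpl10, an X-linked protein at the peptide-forming centre, at 498 and 1057 (2.12), Rpl29 at 298 and 621 (2.08), and Rps3, at the mRNA entry, at 638 and 1319 (2.07). The lowest were Rps15 (0.69), Rpl23a (0.88), Rpl37a (0.89) and Rpl5 (0.91), none of them called. Markers of other cell types differed in both directions. In the young control and knockout, 9 pericyte or smooth muscle markers summed to 380 and 1759 CPM, and 9 vascular endothelial markers to 148 and 642. The 13 keratinocyte markers summed to 3047 and 1750 CPM. The part of these markers in the result was not tested.

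The Schwann-like difference moved with which clusters the cells came from. Of the 1229 knockout cells 903 were in cluster 11 (leading genes include Thbs4 and Sfrp5), where the young control had 16 cells, and the knockout cells of that cluster had 11.7%. In the myelin-gene cluster 18 (Prx, Mbp) the share was 7.10% in the young control and 8.43% in the knockout. In cluster 24 it was 6.90% and 6.43%, and in cluster 19, with 40 young control cells, 10.6% and 8.60%. With clusters weighted as in the young control the ratio was 1.04 and 10 members were called. The share of all genes called under that weighting was not computed.

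In dermal papilla or sheath-like cells the family made up 13.6% in the young control and 13.0% in the knockout, a ratio of 0.954 (0.9499 to 0.959). Of 82 members 5 were called higher (13.9% of 6447 genes) and 1 lower (10.9% of genes). Rps2 was at 1586 and 2729 CPM (ratio 1.72), Rpl7l1 at 28.1 and 46.7 (1.66), Rps27l at 263 and 423 (1.61) and Rplp0 at 1606 and 2522 (1.57). The X-linked Rps4x was the one called lower, at 1948 and 1284 CPM (0.66). The direction of the sum turned when cells were weighted equally: the median over cells was 9.73% in the young control and 12.3% in the knockout, and with each cell thinned to 1500 UMIs the ratio of sums was 1.15. The 200 young control cells were all in cluster 3, while 58 of the 108 knockout cells were in cluster 3 and 50 in cluster 45. Within cluster 3 the share was 13.6% in the young control and 12.01% in the knockout, and in cluster 45 it was 13.1%. Keratinocyte markers were at 1697 CPM in the young control and 174 in the knockout, all 13 detected, and the part of clusters and markers in the result was not tested. Of 21 ribosome assembly genes tested 12 were called higher and 0 lower in the same cells, with a median log2 ratio of 0.79. Nhp2 was at 36.9 and 123 CPM, and Nop58, a box C/D snoRNP protein, at 96.2 and 244.

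In sebocyte-like cells the ratio was 0.890 (0.885 to 0.895), from 21.9% to 19.5%. There, 7 members were called lower, with 14.2% of 5776 genes, and 1 higher, with 18.9% of genes. Rpl23a, at the exit of the peptide tunnel, was at 1978 and 961 CPM, Rps15 at 2008 and 1031, and Rpl31 at 1184 and 729. Rps2 was again the highest, at 2005 and 3135 CPM. The young control cells were all in cluster 13 and 219 of the 226 knockout cells in cluster 36, whose leading genes include Elovl3 and Fa2h but also Sele and Csf3, so cluster and library cannot be told apart there. Markers of other cell types were higher in the knockout cells: 13 keratinocyte markers summed to 6092 and 15549 CPM, 9 vascular endothelial markers to 33.7 and 852, 8 Schwann markers to 76.4 and 1135 and 9 pericyte or smooth muscle markers to 73.5 and 706, with none at 0 in either library. Their part in the result was not tested.

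The 4 smaller classes differed in direction. The ratio of the family's share was 1.34 (1.33 to 1.35) in lymphatic endothelial-like cells, with 22 members called higher (4.46% of genes) and 0 lower (7.66% of genes). It was 1.18 (1.17 to 1.19) in vascular endothelial-like cells, with 9 higher (4.41%) and 0 lower (8.03%). It was 1.07 (1.06 to 1.08) in mural cells, with 2 higher (6.42%) and 1 lower (15.6%), and turned to 0.952 with clusters weighted as in the young control. It was 0.899 (0.891 to 0.908) in lymphoid-like cells, with 1 higher (6.22%) and 6 lower (7.57%), and turned to 1.04 with that weighting. Only 57, 88 and 75 knockout cells stood behind the lymphatic, vascular and lymphoid values.

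The comparison of the old with the young control gave a larger family share in most classes. In Schwann-like cells it went from 7.55% to 14.5%, a ratio of 1.92 (1.91 to 1.93). Of 81 members 65 were called higher, when 7.65% of 6771 genes were, and 0 lower, when 14.7% of genes were. The median log2 ratio was 1.02 for the members and -0.13 for all genes. Rpl29 was at 298 CPM in the young and 899 in the old control (ratio 3.01), Rpl10a at 584 and 1731 (2.97), Rps7 at 583 and 1719 (2.95), and Rps18 at 733 and 2157 (2.94). Rps15 (0.79), Rpl23a (0.92) and Rpl5 (1.15) had the lowest ratios. The share was also higher in the old control within clusters, at 7.10% and 9.38% in cluster 18, 6.90% and 11.7% in cluster 24 and 10.6% and 16.6% in cluster 19. With the young control's cluster weights the ratio was 1.48.

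Other genes of translation differed with them in old Schwann-like cells. Of 17 translation factors with the start tract 9 were called higher (7.65% of all genes) and 0 lower (14.7%), with a median log2 ratio of 0.60. Eif3h was at 122 CPM in the young and 299 in the old control, and Eef1b2, an elongation factor subunit, at 355 and 671. Fau was at 1372 and 2497 CPM (ratio 1.82). Of 14 ribosome assembly genes 5 were called higher and 0 lower, beside the same shares of all genes. They also were in the knockout, where 10.4% of all genes were higher and 16.7% lower. Keratinocyte markers moved with this result: their summed level, over 13 genes that were all detected, was 3047 CPM in young control, 1750 in knockout and 8463 in old control Schwann-like cells. Barcodes of the old control with too few UMIs to be kept had 18.3% ribosomal protein UMIs, against 10.9% in the young control and 8.58% in the knockout. With a profile of those barcodes subtracted, the Schwann-like ratio was 1.56 for the old control and 1.76 for the knockout, and beyond this rough subtraction the part of free RNA was not tested.

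In fibroblast-like cells of the old control the share was 11.5% against 10.3% (ratio 1.12, 1.11 to 1.12). Of 82 members 4 were called higher (8.11% of genes) and 1 lower (5.64%). Rpl36al was at 93.6 and 166 CPM (1.77), Rpl27 at 149 and 245 (1.65), Rpl10 at 881 and 1412 (1.60) and Rpl21 at 932 and 1453 (1.56). Rps15 was the one called lower, at 1063 and 679 CPM (0.64), and Rpl5 (0.74), Rpl39l (0.79) and Rpl23a (0.83) came next. The share was higher in the old control in each of the 4 fibroblast-like clusters, for example 9.10% and 10.4% in cluster 2 and 9.25% and 13.4% in cluster 22. Of the 17 translation factors none was called in either direction there, with a median log2 ratio of -0.19.

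In dermal papilla or sheath-like cells the share was 14.8% against 13.6% (ratio 1.09, 1.08 to 1.09), with 3 members called higher (6.42%) and 2 lower (6.61%). Rpl36al (124 and 192 CPM), Rps3a1 (1235 and 1903 CPM) and Rps7 (1089 and 1642 CPM) were the 3 higher, and Rpl27 followed (225 and 333 CPM). Rpl22l1 (656 and 416 CPM) and Rps15 (1069 and 688 CPM) were the 2 lower, followed by Rpl23a (1003 and 688 CPM) and Rpl39l (60.3 and 41.5 CPM). With cells thinned to 1500 UMIs 35 members, in place of 5, were called. The share of all genes called after thinning was not computed, so no background stands beside that count. The sum's ratio turned to 0.962 with free RNA subtracted. In sebocyte-like cells the sum was 22.0% against 21.9% (ratio 1.01, 1.002 to 1.009). Of 81 members 2 (2.47%) were called higher, when 13.2% of all genes were. Another 4 (4.94%) were called lower, when 9.99% of all genes were, so both shares lay below those of all genes. Rps15 (2008 and 966 CPM), Rpl23a (1978 and 966 CPM) and Rps25 (1875 and 1248 CPM) were among the lower ones. Rpl29 (914 and 1416 CPM) and Rpl21 (1550 and 2390 CPM) were the higher ones, followed by Rps3a1 (1.46) and Rpl3 (1.41).

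Endothelial and mural cells of the old control also had a larger share. The ratio was 1.44 (1.43 to 1.45) in lymphatic endothelial-like cells, with 41 of 81 members higher (5.59% of genes) and 1 lower (11.9%). It was 1.41 (1.40 to 1.42) in vascular endothelial-like cells, with 38 higher (7.94%) and 1 lower (13.6%). It was 1.35 (1.33 to 1.36) in mural cells, with 26 of 82 higher (4.14%) and 0 lower (5.76%). Keratinocyte markers were higher here as well, at 1564 and 5702 CPM in lymphatic, 2002 and 3998 in vascular and 1535 and 2704 in mural cells, and their part in the result was not tested. The ratio was closer to 1 in 2 other classes, at 1.02 (1.01 to 1.02) in lymphoid-like cells, with 2 members higher (8.45%) and 3 lower (12%), and 0.964 (0.962 to 0.966) in keratinocyte-like cells, with 0 higher (5.05%) and 3 lower (7.49%). In macrophage or monocyte-like cells, with 29 cells in the old control, the share was 11.9% in the young and 16.4% in the old control, and in mast-like cells, with 15, it was 8.10% and 11.3%.

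**Figure D3:**
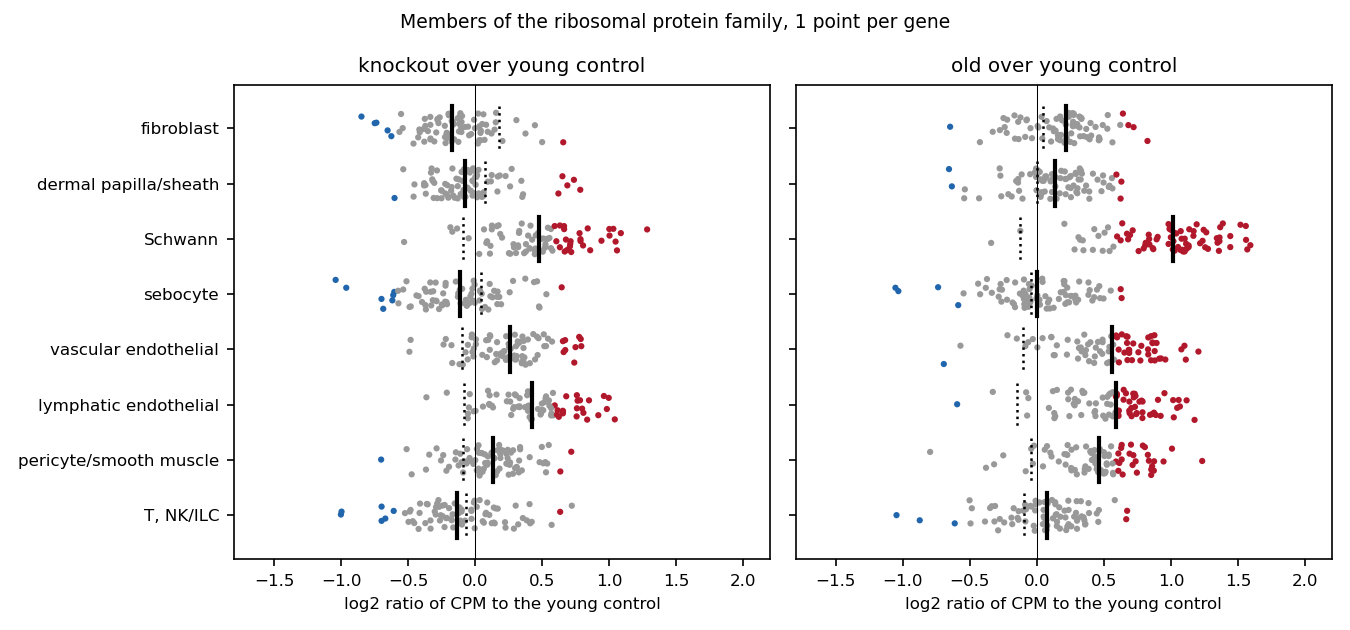
Log2 ratio of CPM for each member tested (points) in the 8 classes compared, for the knockout and for the old control over the young control, beside the median of all genes tested. In Schwann-like cells the members' median is 0.48 for the knockout and 1.02 for the old control, and in fibroblast-like cells -0.17 and 0.22.

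Members differed in their share of the family as well as in their level. Both comparisons share the young control, so a property of that library alone would show in both, and the 8 classes of a library share its preparation and free RNA. Of 81 members tested in all 8 classes, 4 were below 1 in 8 of 8 classes in the knockout, against 5.96% of 3790 genes, and 2 in the old control, against 8.36%. Above 1 in 8 of 8 were 10 members in the knockout, against 6.99%, and 33 in the old control, against 7.76%. As a share of the family's own UMIs, 12 members were lower and 13 higher in 8 of 8 classes in the knockout, and 16 and 24 in the old control. Other genes have no share of the family, so no background stands beside these counts. Shares within the family have a fixed sum, so a gain in some members goes with a loss in others.

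Rps15, a small-subunit protein at the head of the subunit, had the lowest median ratio of its share in both comparisons. Its level in the young control, knockout and old control was 1063, 638 and 679 CPM in fibroblast-like cells, 1069, 820 and 688 in dermal papilla or sheath-like cells, 809, 560 and 638 in Schwann-like cells, and 2008, 1031 and 966 in sebocyte-like cells. It was 1391, 995 and 859 CPM in vascular endothelial-like cells, 1112, 863 and 736 in lymphatic endothelial-like cells, 909, 559 and 697 in mural cells, and 1610, 805 and 779 in lymphoid-like cells. The young control was highest in each of the 8 classes. Its share of the family had a median log2 ratio of -0.79 for the knockout (range -0.97 to -0.31) and -1.07 for the old control (-1.28 to -0.75).

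Rpl23a and Rpl5 came next in both comparisons. Rpl23a had a median log2 ratio of its share of -0.47 for the knockout and -0.76 for the old control. It was at 752, 560 and 621 CPM in fibroblast-like cells, 588, 517 and 540 in Schwann-like cells and 1174, 769 and 767 in lymphoid-like cells of the young control, knockout and old control. Rpl5 had medians of -0.60 and -0.59, and Rpl37a, a zinc-binding large-subunit protein, -0.38 and -0.39. Rpl5 was at 1071, 534 and 584 CPM in lymphoid-like cells and at 519, 473 and 598 in Schwann-like cells, so its level in the old control passed the young one in the second class while its share did not. The others of the 12 lower in the knockout included Rpl37, Rplp1, Rps9, Rps12, Rps14 and Rps25.

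At the other end stood Rps2, Rpl29, Rplp0 and Rpl21. Rps2 was at 791, 1246 and 995 CPM in fibroblast-like cells, 1586, 2729 and 1711 in dermal papilla or sheath-like cells, 615, 1496 and 1576 in Schwann-like cells and 2005, 3135 and 2481 in sebocyte-like cells of the young control, knockout and old control. The median log2 ratio of its share was 0.77 for the knockout (0.43 to 0.85) and 0.29 for the old control, where 1 class was below 0. Rpl29, a large-subunit protein whose loss slows growth in mice, was at 422, 443 and 593 CPM in fibroblast-like cells and 553, 880 and 1275 in vascular endothelial-like cells, with medians of 0.49 and 0.54. Rplp0 had medians of 0.48 and 0.39 and Rpl21 of 0.42 and 0.49. By share of the family, Rplp0 and Rplp1 lay on opposite sides within one complex in both comparisons. In lymphatic endothelial-like cells Rplp0 was at 963, 1673 and 1989 CPM and Rplp1 at 2756, 2652 and 2931. There both levels were higher in the old than in the young control.

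**Figure D4:**
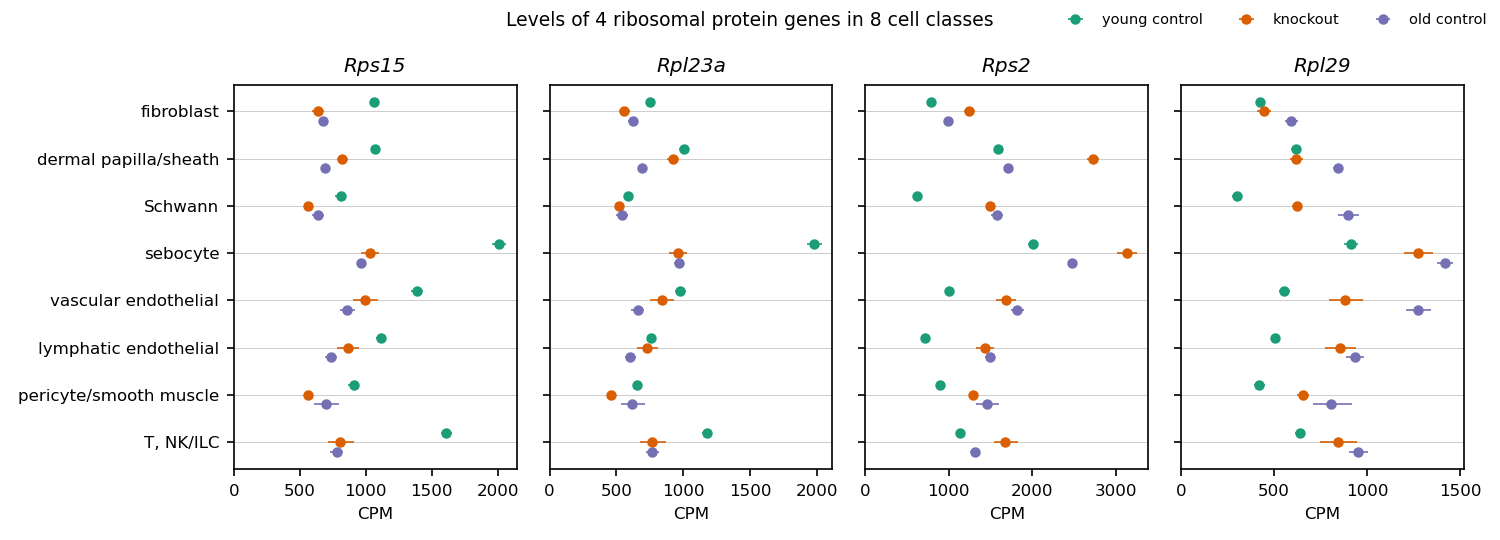
Level in CPM (horizontal axis, each panel on its own scale) of Rps15, Rpl23a, Rps2 and Rpl29 in 8 cell classes (vertical axis) of the 3 libraries, with exact 95% Poisson intervals for counting error. Rps15 and Rpl23a are highest in the young control in each class, and Rps2 and Rpl29 are lowest there in each class.

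**Figure D5:**
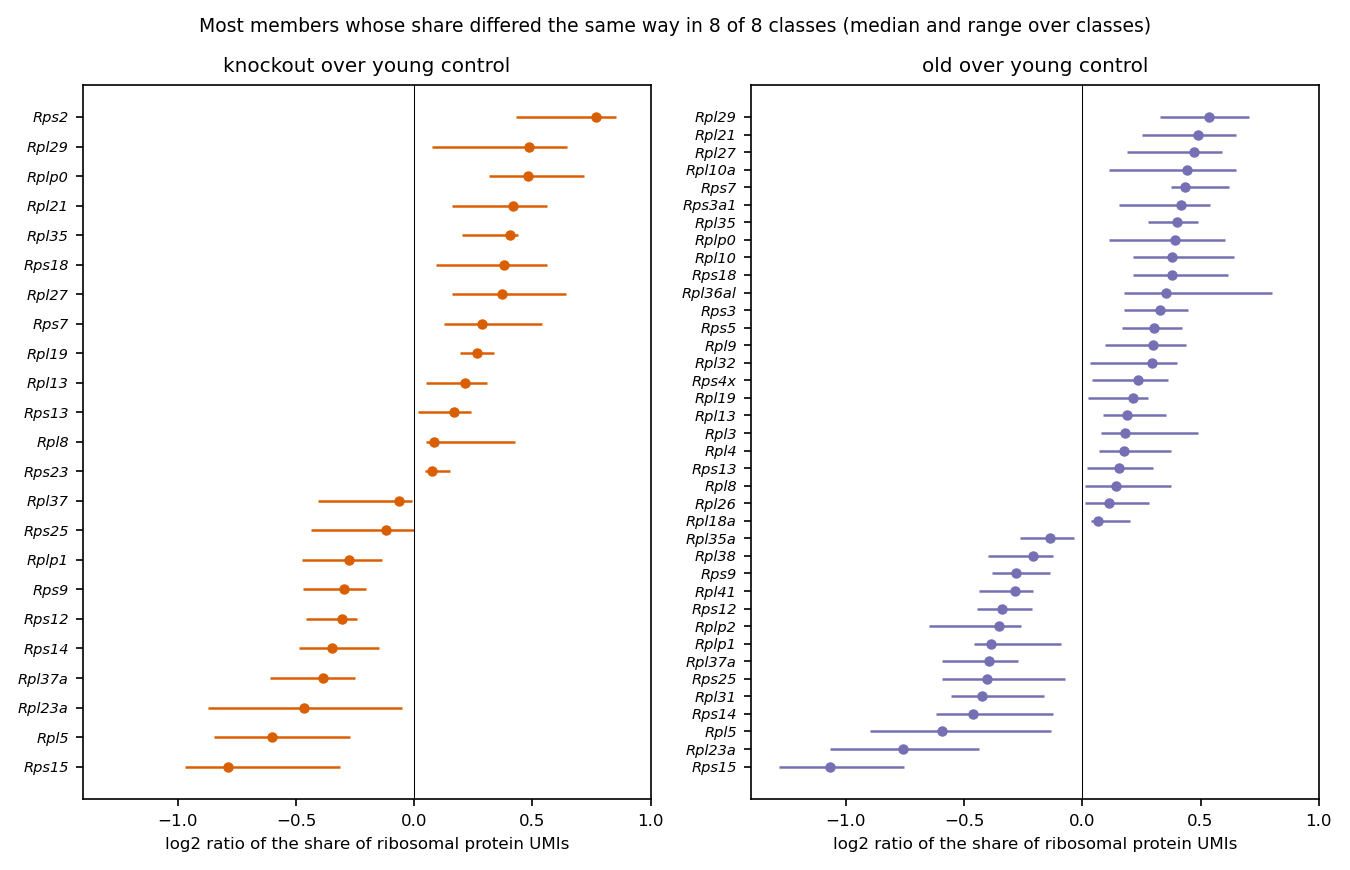
Log2 ratio of a member's share of the family's UMIs (horizontal axis) for most of the members on the same side of 0 in 8 of 8 classes, for the knockout (left) and the old control (right) over the young control. Points are medians and lines ranges over the 8 classes, which share their libraries, and Rps15 is lowest in both panels at -0.79 and -1.07.

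The sets are described by properties that the comparison did not use. Each member is represented by its longest annotated protein-coding transcript, which need not be the one that was counted. In the knockout the median transcript length was 684.5 bases for the 12 lower members, 946 for the 13 higher and 976 for the 56 others, and in the old control 583, 964.5 and 1009 bases for the 16, 24 and 41 members. Median GC content was 51.5%, 54.7% and 50.6% in the knockout sets and 52.6%, 52.4% and 50.6% in the old control sets. In the knockout sets a 60-base stretch near the 3' end was shared with another annotated gene by 9 of 12, 11 of 13 and 35 of 56 members. Of all 84 members 55 shared one, and for 17 such a gene was among the listed features. Reads from such stretches may be lost or, where the copy is a listed feature, assigned to it. How the authors' counting treated them was not given in the sources used here. Rps2 shared a stretch with 45 genes and Rpl29 with 52, Rps15 with 4, and Rpl5 with 0. Among the listed features were 0 of the genes for Rps2, 2 for Rpl29 and 0 for Rps15. The part of such copies in these values was not tested.

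The 4 X-linked members are given because the libraries differed in sex-linked RNA. Rpl10 was at 881, 973 and 1412 CPM in fibroblast-like cells of the young control, knockout and old control, and Rps4x at 1719, 1321 and 1982. Rpl36a was at 727, 629 and 879 CPM and Rpl39 at 1887, 1633 and 2274 in the same cells. In Schwann-like cells Rpl10 was at 498, 1057 and 1205, Rps4x at 1080, 1597 and 2509, Rpl36a at 486, 661 and 972 and Rpl39 at 1149, 1565 and 2583 CPM. The old control had the highest value of each of the 4 in both classes, where the family's sum was also higher. Elsewhere this held in each class for Rps4x but not for the others. Rpl36a was at 1728, 1341 and 1606 CPM in sebocyte-like cells, and Rpl10 at 759, 1434 and 1268 in lymphatic endothelial-like cells. The part of sex in these values was not tested.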

How the data were processed

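Single-cell libraries of mouse dorsal skin were made with the Chromium Single Cell 3' v3.1 chemistry after collagenase I digestion, per the labels' protocols. The deposited files are matrices of unnormalised UMI counts, with genes in rows and barcodes in columns, written by Cell Ranger per the file headers. Cell Ranger 3.1.0, Seurat 3.1.5 and build mm10 are named per the submitters' processing notes, and how barcodes were selected was not given in the sources used here.

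From these counts, barcodes with at least 500 genes, 1000 UMIs and a mitochondrial share of at most 15% were kept (11722, 9408 and 12074 in the young control, knockout and old control). The automatic Scrublet threshold in scanpy 1.11.5 marked 3.05%, 0% and 0.0083%, so it had not worked, and in its place the top 8% of scores in each library were dropped. Cells were scaled to 10000, and 2000 variable genes (without ribosomal protein and mitochondrial genes, Malat1, Xist and Gm42418), 30 components and 20 neighbours (scikit-learn 1.9.0) were clustered by Leiden at resolution 1 (leidenalg 0.10.2). Of 48 clusters 29 were named from fixed markers into 13 classes. The doublet fallback, the thresholds for naming and the genes and sequences shown in detail were chosen after values were seen. The members and gene lists were chosen with earlier results of these data known.

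UMIs were summed per library and class. Each ratio has an exact 95% interval, from the binomial distribution of one count given the sum of both, which cover counting error only. With 1 library per group no p-value is given. In data simulated on the real totals, with 200 genes changed, the size rule called 86% to 100% of doubled and 59% to 95% of halved genes over the 8 comparisons of the 4 main classes, lowest for the knockout in sebocyte-like cells (5346 genes simulated). Genes were named by rule: the stalk genes and Rpsa, the copies and their partners, the 4 highest and 4 lowest ratios in each main class, the most and least even members, and at most 4 genes per list; a few genes that the rule names are not reported here. The genes followed across all classes were added to these. The lists were translation factors with a start tract, Fau, ribosome assembly, mTOR control, the integrated stress response, p53 targets, mitochondrial ribosomal proteins and dissociation genes. Alternatives were TMM (edgeR 4.0.16) and median-of-ratios scaling, other filters, thinning, doublets kept, libraries clustered alone, the young control's cluster mix and a 2-fold rule; a 4000 UMI minimum and free RNA subtraction were added after the data were seen. Promoter windows are from RefSeq on GRCm38.p6, and transcripts from GENCODE M21, on the assembly that mm10 names.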

Additional observations from a re-analysis of the deposited data

How the results depend on the processing

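The summed share kept its direction under every alternative run in fibroblast-like and Schwann-like cells: 0.762 to 0.926 and 1.04 to 1.76 for the knockout, 1.04 to 1.46 and 1.48 to 2.09 for the old control. Within the family, Rps15, Rpl23a, Rpl5, Rpl29 and Rplp0 kept the side of their share in every class that could be run under the 5 settings recomputed (doublets kept, at most 8% mitochondrial UMIs, thinned, libraries clustered alone, at least 4000 UMIs), and Rps2 did in the knockout. This was 8 classes, except 7 with doublets kept and 6 with the 8% limit in the knockout. Values that moved or turned are given by setting, as knockout and then old control where both moved, and the cause was not tested. Few cells limit what can be said of classes with under 100 knockout cells. Calls over all genes were computed for TMM and median-of-ratios scaling only. Counts of members called under the other settings therefore have no background beside them.

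With TMM scaling the ratios were 0.762 and 1.05 in fibroblast-like, 0.949 and 1.08 in dermal papilla or sheath-like, 1.48 and 2.09 in Schwann-like, and 0.774 and 0.940 (turned) in sebocyte-like cells, and 11, 42 and 16 members were called for the knockout in fibroblast-like, Schwann-like and sebocyte-like cells. With median-of-ratios scaling they were 0.788 and 1.06, 0.971 and 1.07, 1.44 and 2.03, and 0.780 and 0.912 (turned), with 16 members called for the knockout in sebocyte-like cells. The median of all genes moved by -0.20 (fibroblast-like and sebocyte-like, knockout) and 0.12 (Schwann-like, both comparisons) under TMM. The split of members higher and lower was then 0 and 11 in knockout fibroblast-like, 0 and 16 in knockout sebocyte-like, and 0 and 5 in old sebocyte-like cells. For all genes it was 579 and 752, 828 and 1186, and 652 and 804 in the same order. In knockout Schwann-like cells it was 42 and 0 for members and 993 and 820 for all genes. Under median-of-ratios scaling knockout sebocyte-like cells had 0 and 16 members, and 839 and 1158 of all genes.

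With mitochondrial UMIs left out of the total the ratios were 0.897 and 1.13 in fibroblast-like, 1.10 (old) in dermal papilla or sheath-like, 1.41 and 1.958 in Schwann-like, and 0.900 and 1.002 in sebocyte-like cells. With at most 8% mitochondrial UMIs they were 0.926 and 1.17, 1.06 (old), 1.22 and 1.87, and 0.833 and 1.00005, and the members called were 9 (old, fibroblast-like), 2 (old, dermal papilla or sheath-like), 16 (knockout, Schwann-like), and 4 and 3 (sebocyte-like).

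Thinned to 1500 UMIs, the ratios were 1.17 (old, fibroblast-like), 1.15 (turned) and 1.42 (dermal papilla or sheath-like), 1.43 and 2.01 (Schwann-like) and 0.914 (knockout, sebocyte-like), with 11 and 10 members called in fibroblast-like, 35 in old dermal papilla or sheath-like and 10 in old sebocyte-like cells. In old T, NK or innate lymphoid-like cells the ratio turned to 0.988. With at least 4000 UMIs they were 1.10 (old, fibroblast-like), 0.942 and 1.02 (dermal papilla or sheath-like), 1.22 and 1.75 (Schwann-like) and 1.04 (old, sebocyte-like), with 2 members called in old dermal papilla or sheath-like and 12 in knockout Schwann-like cells.

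With doublets kept the ratios were 0.811 and 1.04 in fibroblast-like, 0.934 and 1.10 in dermal papilla or sheath-like, 1.15 and 1.54 in Schwann-like, and 0.733 and 1.02 in sebocyte-like cells, 11 and 22 members were called for the knockout in Schwann-like and sebocyte-like cells, and old T, NK or innate lymphoid-like cells turned to 0.977. With libraries clustered alone they were 0.773 and 1.46, 0.914 (knockout), 1.201 and 2.04, and 0.687 and 0.971 (turned). Members called were then 11 and 41 in fibroblast-like, 0 (knockout) in dermal papilla or sheath-like, 15 (knockout) in Schwann-like, and 34 and 3 in sebocyte-like cells, and knockout pericyte or smooth muscle-like cells turned to 0.871. With the young control's cluster mix they were 0.885 and 1.16 (fibroblast-like), 0.884 (knockout, dermal papilla or sheath-like) and 1.04 and 1.48 (Schwann-like, 10 members called for the knockout), and pericyte or smooth muscle-like and T, NK or innate lymphoid-like cells of the knockout turned to 0.952 and 1.04.

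With free RNA subtracted they were 0.900 (knockout, fibroblast-like), 0.961 and 0.962 (turned; dermal papilla or sheath-like) and 1.76 and 1.56 (Schwann-like), with 2 members called in old dermal papilla or sheath-like and 62 in knockout Schwann-like cells, and old T, NK or innate lymphoid-like cells turned to 0.927. The knockout profile came from 124 barcodes, and sebocyte-like cells were left out. In Schwann-like cells the step took 69.5% of knockout and 62.9% of old control UMIs as free RNA. The 1.76, which is the upper end of the knockout range above, is therefore uncertain in size. Under the 2-fold rule 0 members were called in fibroblast-like and dermal papilla or sheath-like cells in both comparisons, 7 and 42 in Schwann-like, and 1 and 2 in sebocyte-like cells.

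In the 4 smaller classes 57 ratios and 33 counts moved and 14 and 60 stayed. Doublets kept in knockout vascular cells, the 8% limit in knockout lymphatic and lymphoid cells, and the cluster mix in knockout sebocyte-like cells were not run, because too few cells or no shared cluster remained. No paired analysis was possible because each group has 1 library.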

Other observations

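Mitochondrial ribosomal proteins belong to a separate ribosome. In knockout fibroblast-like cells 8 of 54 tested were called higher (16.1% of all genes were) and 0 lower (7.82%), with a median log2 ratio of 0.47 against -0.17 for the cytosolic members and 0.18 for all genes. Mrps28 was at 30.1 CPM in young, 62.1 in knockout and 62.1 in old fibroblast-like cells, and Mrpl15 was at 19.1 and 36.6 in the first 2. In Schwann-like cells both families had medians above 0: 10 of 61 mitochondrial ones were called higher for the knockout (10.4% of all genes) and 1 for the old control (7.65%), with 0 lower in both, and their medians were 0.39 and 0.28, against 0.48 and 1.02 for the cytosolic members. In sebocyte-like cells 4 of 69 were lower and 0 higher in each comparison, where 14.2% and 9.99% of all genes were lower.

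Among mTOR and translation control genes, 2 of 12 were called higher (16.1% of all genes) and 3 lower (7.82%) in knockout fibroblast-like cells. Deptor, an inhibitor of mTOR, was at 187 CPM in the young control and 76.5 in the knockout, and in Schwann-like cells at 455 and 140. Rheb, an activator of mTOR, was at 68.3, 145 and 103 CPM in fibroblast-like cells of the young control, knockout and old control, and Myc, a regulator of ribosome synthesis, at 96.6, 38.2 and 51.7. In Schwann-like cells 3 of 12 were higher (10.4%) and 3 lower (16.7%) in the knockout, and 1 higher (7.65%) and 2 lower (14.7%) in the old control.

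Of p53 targets, 3 of 8 were higher (16.1% of all genes) and 1 lower (7.82%) in knockout fibroblast-like cells, where Phlda3 was at 33.3 CPM in the young control and 186 in the knockout, and 2 higher (10.4%) and 2 lower (16.7%) in knockout Schwann-like cells. Against the same shares of all genes, of 5 integrated stress response genes 2 were higher and 0 lower in knockout fibroblast-like cells, led by Ppp1r15a at 347 and 612 CPM, and 1 higher and 1 lower in knockout Schwann-like cells. Of 10 dissociation genes, 2 were higher (16.1%) and 1 lower (7.82%) in knockout fibroblast-like cells and 7 higher (13.2% of all genes) and 0 lower (9.99%) in old sebocyte-like cells.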
